A study of Homo sapiens with 12 samples.

Results

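The protein disulfide isomerases (PDIs) and oxidases of the endoplasmic reticulum (ER) described here are 10 genes, taken by symbol from a table of 63187 genes. They are the PDI family genes P4HB, PDIA3, PDIA4, PDIA6, DNAJC10, PDIA5 and TXNDC5, the sulfhydryl oxidase genes ERO1A and ERO1B, and the peroxiredoxin gene PRDX4. All 10 were found in the table, and 9 of them passed the filter on low values, 3 or more of the 12 libraries with a normalized count of 10 or higher. TXNDC5 did not pass and was tested only in an alternative run on all genes with a read.

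RNA came from the human breast adenocarcinoma line MDA-MB-231, with 3 libraries for each of 4 media. The deficient medium had neither glucose nor glutamine, the glutamine-only medium had 4 mM glutamine and no glucose, the glucose-only medium had 25 mM glucose and no glutamine, and the full medium had 25 mM glucose and 4 mM glutamine. Cells of all 4 groups had been grown with 10% serum and then stood 36 h in their medium with 3% serum, so that the full medium is also a low-serum medium. Nothing in the labels says that libraries of 1 medium are separate cultures, so the p-values measure the spread between libraries, which may be technical.

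Secreted and membrane proteins form their disulfide bonds in the ER. PDIs insert, remove and rearrange these bonds in their clients, and ERO1 enzymes re-oxidise the PDIs with molecular oxygen, which yields hydrogen peroxide. PRDX4 consumes that peroxide and can hand its oxidising equivalents back to PDIs. Many of these genes are known targets of the unfolded protein response, the signalling from the ER that is set off when folding is impaired, and ERO1A is also known as a hypoxia-inducible gene.

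Averaged over glutamine, 5 of the 6 tested PDI genes (PDIA3, PDIA4, PDIA6, P4HB and DNAJC10) and ERO1B were higher without glucose, where 20.5% of all tested genes were. Where glutamine was absent, DNAJC10 did not pass on glucose removal (-0.04, adjusted p = 0.780). Averaged over glucose, PDIA3, PDIA4, PDIA6 and ERO1A were lower without glutamine, where 19.5% of all tested genes were. Where glucose was present, PDIA4 did not pass on glutamine removal (-0.25, adjusted p = 0.0639). PDIA4 reached 635 ± 49.1 normalized counts in glutamine-only cells and 153 ± 7.14 in full medium (SD, n = 3 each). In deficient against full cells the 2 ERO1 paralogs went in opposite directions. ERO1B was 8.23-fold higher and ERO1A 2.51-fold lower, on the log2(normalized count + 1) scale of the test. In glutamine-only against glucose-only cells both were higher, ERO1B 4.39-fold and ERO1A 2.01-fold on that scale. PDIA5 and PRDX4 passed the test in no comparison with all 12 libraries and the authors' scaling, but each did in some comparisons under alternative settings. In bulk RNA, a change in RNA per cell cannot be told apart from a change in the make-up of the cells.

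The libraries held 875033 to 1473587 reads in genes. All 7 mesenchymal markers, which are typical of this line, reached 10 normalized counts, with VIM up to 1047, and their sum was 3638 to 3947 in deficient, 2586 to 2606 in glutamine-only, 2863 to 3006 in glucose-only and 3011 to 3182 in full libraries. All 7 blood and all 7 fibroblast markers stayed under 10 in every library. Of the plasma and B cell markers, which matter here because plasma cells are rich in PDIs, 6 of 7 stayed under 10, and SDC1 reached 13.8. The sum of the 7 was 2.42 to 7.81 in deficient, 1.93 to 7.22 in glutamine-only, 1.18 to 6.29 in glucose-only and 12.2 to 15.9 in full libraries. Of 6 endothelial markers 4 stayed under 10 and PECAM1 reached 19.7, with sums of 14.8 to 24.2, 15.4 to 18.6, 5.88 to 9.43 and 15.6 to 20.7 in the same order of media. Of 12 luminal epithelial markers 7 stayed under 10 and KRT18 reached 396, with sums of 518 to 569, 469 to 502, 467 to 510 and 569 to 591. Mitochondrial genes took 28.2 to 33.7% of reads in deficient, 25.4 to 28.2% in glutamine-only, 28.9 to 32.2% in glucose-only and 18.5 to 22.6% in full libraries. The part of these markers in the results was not tested, and that of mitochondrial genes only by the scaling of nuclear genes alone.

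The values are the authors' normalized counts, reads divided by 1 size factor per library, so that levels are relative to the bulk of genes. Scaling every library to the same total instead moved the median log2 change of all tested genes by -0.388 in deficient, -0.115 in glutamine-only and -0.211 in glucose-only cells, each against full. Changes below are relative to the authors' scaling, and a call or direction that the other scaling ends is named beside it.

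**Figure D1:**
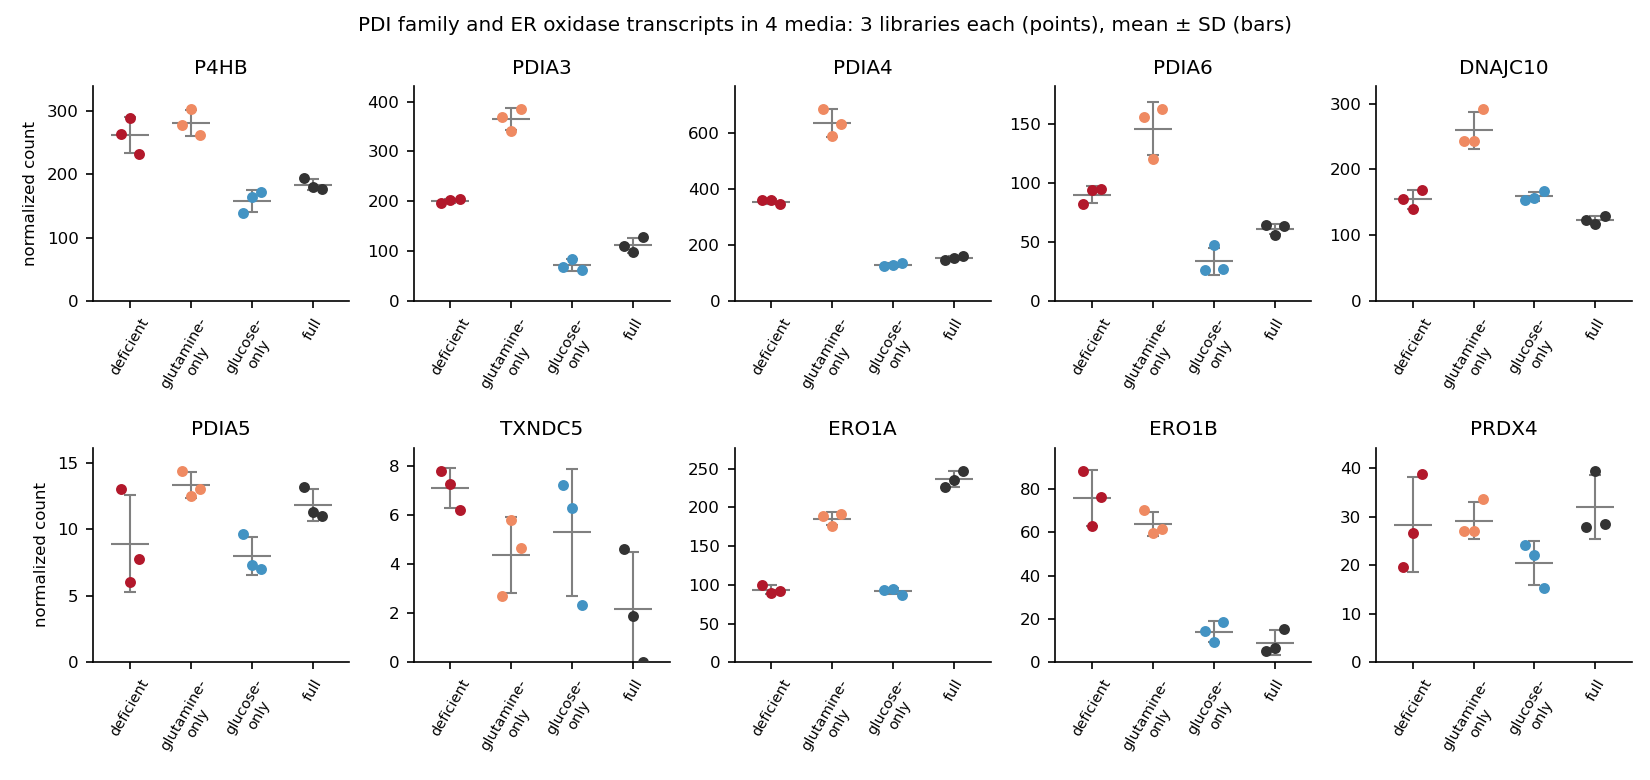
Normalized counts (vertical axes, each from 0) of the 10 genes in the 12 libraries, by medium (horizontal axes). Points are libraries, and bars are the mean and SD of 3 libraries. PDIA3, PDIA4, PDIA6, P4HB and ERO1B are higher in both glucose-free media, and ERO1A is low in both glutamine-free media.

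Promoter windows are shown first for the genes whose changes the results turn on. Each is the 250 bases before a RefSeq transcription start on build GRCh38.p14, written 5′ to 3′ on the gene's strand, and 12 such windows were found for 9 of the 10 genes. Capitals mark matches, on either strand, to the ER stress response element ERSE (CCAAT, any 9 bases, then CCACG), the unfolded protein response element UPRE (TGACGTGG) or the core of the hypoxia response element (ACGTG). Matches describe letters and not binding.

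PDIA6: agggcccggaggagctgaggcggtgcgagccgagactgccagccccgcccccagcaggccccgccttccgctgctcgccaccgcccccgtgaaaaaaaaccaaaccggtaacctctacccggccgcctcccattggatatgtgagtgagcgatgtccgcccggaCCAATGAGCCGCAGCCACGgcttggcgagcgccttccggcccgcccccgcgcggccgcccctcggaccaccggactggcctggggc

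ERO1B: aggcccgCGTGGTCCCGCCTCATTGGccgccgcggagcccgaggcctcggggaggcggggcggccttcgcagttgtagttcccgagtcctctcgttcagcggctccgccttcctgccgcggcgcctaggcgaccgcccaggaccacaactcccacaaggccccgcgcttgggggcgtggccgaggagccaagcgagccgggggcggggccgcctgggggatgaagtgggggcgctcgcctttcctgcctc

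DNAJC10: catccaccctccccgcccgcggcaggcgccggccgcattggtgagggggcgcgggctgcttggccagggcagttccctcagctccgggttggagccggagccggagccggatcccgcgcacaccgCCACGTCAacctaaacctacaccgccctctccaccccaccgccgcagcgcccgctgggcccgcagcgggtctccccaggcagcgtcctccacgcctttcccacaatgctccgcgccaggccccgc

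ERO1A: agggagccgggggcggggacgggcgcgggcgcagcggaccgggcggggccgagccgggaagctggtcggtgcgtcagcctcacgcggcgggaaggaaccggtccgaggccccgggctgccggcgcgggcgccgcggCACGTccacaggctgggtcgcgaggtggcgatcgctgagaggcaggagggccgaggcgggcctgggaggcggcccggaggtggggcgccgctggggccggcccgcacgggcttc

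PDIA4: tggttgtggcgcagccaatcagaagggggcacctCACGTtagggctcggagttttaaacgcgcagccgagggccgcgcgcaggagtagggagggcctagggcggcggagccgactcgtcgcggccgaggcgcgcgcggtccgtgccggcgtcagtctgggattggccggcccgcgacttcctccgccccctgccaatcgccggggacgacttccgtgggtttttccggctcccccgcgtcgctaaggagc

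PDIA6 has 2 windows: the one printed (chr2:10812786-10813035, minus strand) holds an ERSE 86 to 68 bases before the start, and the other (chr2:10832486-10832735) matched none of the motifs searched. The ERO1B window (chr1:236281959-236282208, minus strand) holds an ERSE on the opposite strand, 243 to 225 bases before the start. Of 35116 windows of this length over all genes, 26 (0.074%) hold an ERSE, and those of HSPA5, HSP90B1, CRELD2 and XBP1, among 21 ER chaperone and stress genes with a window, are among them. The DNAJC10 window (chr2:182716007-182716256, plus strand) holds a UPRE on the opposite strand 125 to 118 bases before the start, a match found in 0.612% of windows. Of the 2 TXNDC5 windows 1 holds a UPRE too. The ERO1A window (chr14:52695559-52695808, minus strand) holds the hypoxia core on the opposite strand at 114 to 110 bases before the start. The PDIA4 window printed (chr7:149028491-149028740, minus strand) holds that core at 216 to 212, also on the opposite strand. The other PDIA4 window (chr7:149025310-149025559) matched the CCAAT box and no other motif. That core is in 18.5% of all windows and in windows of 6 of the 9 genes, and in DNAJC10 and TXNDC5 it lies inside the UPRE. No window of the 9 genes matched ERSE-II (an ATTGG, 1 base, then CCACG, in 0.0513% of windows) or the amino acid response motif TGATGNAA (3.14% of windows). The CCAAT box, part of the ERSE, was in windows of 6 of the 9 genes and in 32% of all windows.

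PDIA4 (ENSG00000155660, chr7:149003051-149028505), also called ERp72, is a PDI with several thioredoxin-like domains. Its normalized counts were 359.3, 359.8 and 345.5 in deficient, 685.5, 587.5 and 631.9 in glutamine-only, 122.9, 127.8 and 136.4 in glucose-only and 145.5, 154.2 and 159.6 in full libraries. The glutamine-only libraries were the highest, the deficient ones came next, and neither overlapped any library with glucose. The log2 change was 1.21 ± 0.10 in deficient cells (SE, limma adjusted p = 1.66e-11) and 2.04 ± 0.10 in glutamine-only cells (adjusted p = 9.51e-16), each against full. In glucose-only cells it was -0.25 ± 0.10 (adjusted p = 0.0639), which did not pass the threshold. It passed with equal totals (-0.46, adjusted p = 0.00403) and, with the authors' scaling, among genes with a mean of at least 50 (adjusted p = 0.0273).

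PDIA3 (ENSG00000167004, chr15:43746438-43773278), also called ERp57, works with calnexin and calreticulin on glycoproteins. It had 196.6, 202.9 and 203.4 normalized counts in deficient, 368.0, 340.9 and 384.9 in glutamine-only, 68.7, 84.9 and 62.3 in glucose-only and 110.4, 97.8 and 127.5 in full libraries. The 4 media did not overlap in PDIA3, with glutamine-only highest and glucose-only lowest. The log2 change against full was 0.85 ± 0.12 in deficient (adjusted p = 7.38e-07), 1.70 ± 0.12 in glutamine-only (adjusted p = 4.84e-12) and -0.63 ± 0.12 in glucose-only cells (adjusted p = 0.000201). Its processed pseudogene PDIA3P1 averaged 9.97, 15.5, 3.81 and 5.41 in the same order of media, and adding its values to those of PDIA3 changed no call.

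PDIA6 (ENSG00000143870, chr2:10783391-10837712), also called P5, binds the chaperone HSPA5 and unfolded protein response sensors. It had 82.0, 94.2 and 94.7 normalized counts in deficient, 156.1, 120.4 and 163.1 in glutamine-only, 26.5, 47.2 and 27.0 in glucose-only and 64.1, 56.4 and 63.3 in full libraries. The order of the media was that of PDIA3, again without overlap, although glucose-only library B lay well above A and C. The log2 change against full was 1.23 ± 0.17 in glutamine-only (adjusted p = 2.32e-06) and -0.90 ± 0.17 in glucose-only cells (adjusted p = 0.000219). In deficient cells it was 0.55 ± 0.17 (adjusted p = 0.00753), a call that was lost with equal totals (0.15, adjusted p = 0.502) and with nuclear genes alone (0.34, adjusted p = 0.103). On the opposite strand 25.2% of its exon bases lie in ATP6V1C2, which averaged at most 3.95 normalized counts in any medium.

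P4HB (ENSG00000185624, chr17:81843166-81860535) encodes PDI itself, which is also a subunit of collagen prolyl 4-hydroxylase and of the microsomal triglyceride transfer protein. It had 264.2, 289.8 and 232.2 normalized counts in deficient, 278.7, 303.4 and 262.8 in glutamine-only, 138.5, 164.5 and 171.7 in glucose-only and 193.7, 180.5 and 177.0 in full libraries. Both glucose-free media lay above both media with glucose, and the glucose-free media overlapped each other. The log2 change against full was 0.61 ± 0.11 in glutamine-only (adjusted p = 8.71e-05) and 0.51 ± 0.11 in deficient cells (adjusted p = 0.000281). The deficient call was lost with equal totals (0.10, adjusted p = 0.504). In glucose-only cells the change was -0.22 ± 0.11 (adjusted p = 0.147), which equal totals turned into a call (-0.44, adjusted p = 0.00782).

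DNAJC10 (ENSG00000077232, chr2:182716257-182794464), or ERdj5, is a PDI with a J domain that reduces disulfides in proteins bound for degradation, with EDEM1 and HSPA5. It had 154.9, 140.1 and 169.3 normalized counts in deficient, 242.6, 243.7 and 291.7 in glutamine-only, 153.0, 157.2 and 167.0 in glucose-only and 122.3, 116.6 and 129.3 in full libraries. The glutamine-only libraries stood above the other 9, and deficient and glucose-only libraries overlapped. Its log2 change in glutamine-only cells against full was 1.07 ± 0.11 (adjusted p = 1.00e-08). The smaller changes against full, 0.33 ± 0.11 in deficient (adjusted p = 0.0120) and 0.37 ± 0.11 in glucose-only cells (adjusted p = 0.0125), did not hold with DESeq2 on whole reads (adjusted p = 0.0624 and 0.0693). Nor did they hold when all genes with a read were tested (adjusted p = 0.06473 and 0.06915). With equal totals the change in deficient cells turned to -0.07 (adjusted p = 0.701) and that in glucose-only cells was 0.15 (adjusted p = 0.459). With nuclear genes alone these were 0.12 (adjusted p = 0.449) and 0.33 (adjusted p = 0.0518), and with quantile normalization the deficient call was lost too (0.22, adjusted p = 0.0834). The deficient call was also lost without deficient library C (0.26, adjusted p = 0.0687), and the glucose-only call without full library B (adjusted p = 0.0549) or glucose-only library C (adjusted p = 0.0520).

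PDIA5 and TXNDC5 were the low PDIs. PDIA5 (ENSG00000065485, chr3:123067025-123162104), a PDI described in human cells as an activator of the stress sensor ATF6, had 13.02, 6.04 and 7.76 normalized counts in deficient, 14.4, 12.5 and 13.05 in glutamine-only, 9.64, 7.33 and 7.05 in glucose-only and 13.2, 11.3 and 11.01 in full libraries. With 21 to 44 reads per medium it passed no test with all 12 libraries and the authors' scaling. Its log2 change against full was -0.43 ± 0.33 in deficient, 0.16 ± 0.33 in glutamine-only and -0.52 ± 0.33 in glucose-only cells. Averaged over glucose, it was lower without glutamine with equal totals (-0.78, adjusted p = 0.0101) and with nuclear genes alone (-0.66, adjusted p = 0.0286). The same call was made without deficient library A (-0.69, adjusted p = 0.0237). TXNDC5 (ENSG00000239264, chr6:7881517-7910788), or ERp46, had 7.81, 7.24 and 6.21 normalized counts in deficient, 2.71, 5.78 and 4.66 in glutamine-only, 7.23, 6.29 and 2.35 in glucose-only and 4.63, 1.88 and 0 in full libraries. The 0 in full library C allows a value of up to 2.75, the worth of 3 reads, and this limit covers counting error only. Each medium held 9 to 20 reads of TXNDC5, and the gene shares 60.6% of its exon bases with the readthrough gene BLOC1S5-TXNDC5, listed at 0 in all 12 libraries, and how the authors' counting treated shared exons is not given in the sources used here.

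ERO1A (ENSG00000197930, chr14:52639915-52695558) is the widely expressed ERO1 oxidase. Its normalized counts were 100.2, 89.4 and 91.6 in deficient, 189.4, 176.2 and 191.1 in glutamine-only, 94.0, 94.3 and 87.0 in glucose-only and 226.8, 235.0 and 247.7 in full libraries. The 6 libraries without glutamine lay together below the 6 with it, and full medium was highest. The log2 change against full was -1.33 ± 0.10 in deficient (adjusted p = 1.42e-11) and -1.36 ± 0.10 in glucose-only cells (adjusted p = 5.28e-11). Deficient cells differed from glucose-only cells by 0.03 ± 0.10 (adjusted p = 0.844). In glutamine-only cells the change against full was -0.35 ± 0.10 (adjusted p = 0.0153), a call lost with DESeq2 (adjusted p = 0.0790), without glutamine-only library B (adjusted p = 0.0692) and without full library C (adjusted p = 0.0670).

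ERO1B (ENSG00000086619, chr1:236215101-236281958) is the paralog known from secretory tissues such as the pancreas. Against full medium it went the other way in both glucose-free media. It had 88.5, 62.8 and 76.1 normalized counts in deficient, 70.4, 59.7 and 61.5 in glutamine-only, 14.5, 9.43 and 18.8 in glucose-only and 5.29, 6.58 and 15.6 in full libraries. The glucose-free libraries lay far above those with glucose, whose 2 media overlapped through full library C. Of the 6 libraries with glucose 3 were under 10, and full medium held 32 reads in all. The log2 change was 3.04 ± 0.28 in deficient (adjusted p = 2.77e-10) and 2.81 ± 0.28 in glutamine-only cells (adjusted p = 5.93e-09), each against full. In glucose-only cells it was 0.67 ± 0.28 (adjusted p = 0.0788), and 1.09 without full library C (adjusted p = 0.00248) or 0.92 without glucose-only library B (adjusted p = 0.0263), where it passed.

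PRDX4 (ENSG00000123131, chrX:23667493-23686397), the ER peroxiredoxin, had 19.5, 26.6 and 38.8 normalized counts in deficient, 27.1, 27.0 and 33.6 in glutamine-only, 24.1, 22.005 and 15.3 in glucose-only and 27.8, 39.5 and 28.4 in full libraries. Deficient libraries spanned almost the whole range, and the glucose-only ones lay below the full ones. Its log2 change against full was -0.20 ± 0.24 in deficient (adjusted p = 0.505), -0.11 ± 0.24 in glutamine-only (adjusted p = 0.799) and -0.62 ± 0.24 in glucose-only cells (adjusted p = 0.0627). With equal totals the changes in deficient (-0.59, adjusted p = 0.0488) and glucose-only cells (-0.83, adjusted p = 0.0118) passed.

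**Figure D2:**
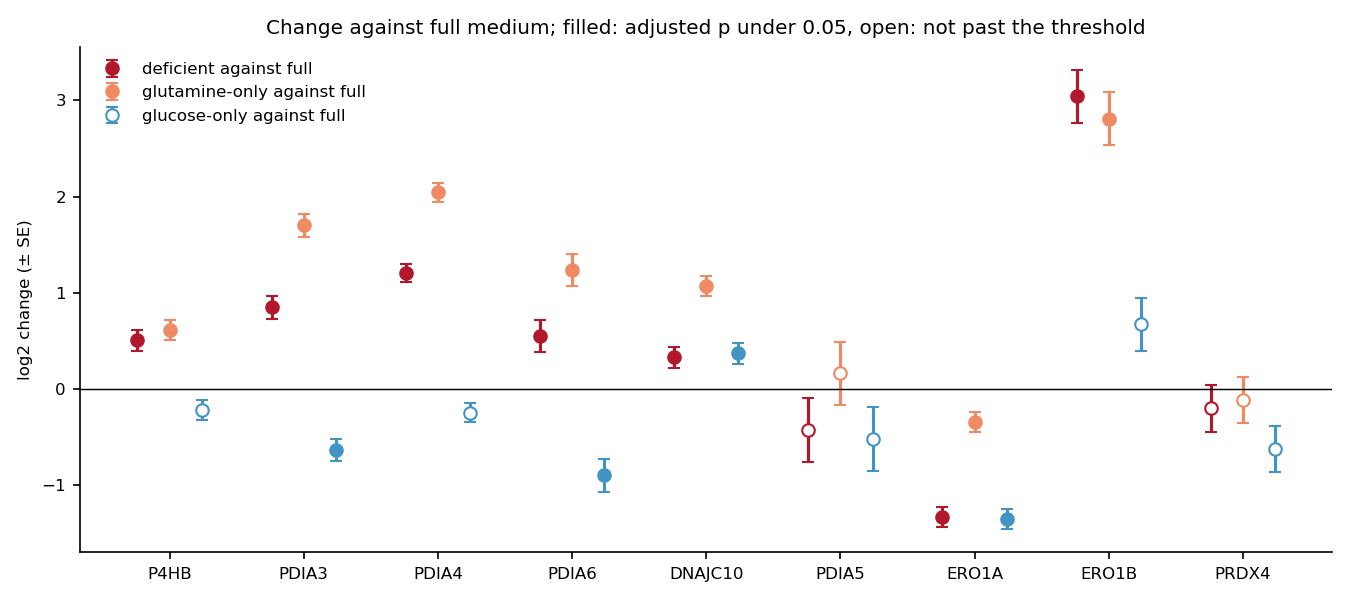
Log2 change against full medium with its SE (vertical axis) for the 9 tested genes (horizontal axis), in deficient, glutamine-only and glucose-only cells. Filled points passed an adjusted p of 0.05. Changes of P4HB, PDIA3, PDIA4, PDIA6, DNAJC10 and ERO1B are positive in both glucose-free media, and those of ERO1A are negative in all 3 media, with the one in glutamine-only cells near the threshold.

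In deficient against full cells, 6 of the 9 tested genes were higher (P4HB, PDIA3, PDIA4, PDIA6, DNAJC10, ERO1B), 1 was lower (ERO1A) and 2 did not pass, with a median log2 change of 0.51. Over all 9270 tested genes, 26.3% were called higher and 25.5% lower, and the median was 0.01. Of those calls 50.8% were higher, against 23.6% with equal totals, where 3 of the 9 genes were higher (PDIA3, PDIA4, ERO1B) and 2 lower (ERO1A, PRDX4).

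In glutamine-only against full cells, the same 6 genes were higher and ERO1A lower, with a median of 1.07. Over all tested genes 10.8% were called higher and 11.6% lower, with a median of -0.01. The share of calls that were higher was 48.2%, and 31.6% with equal totals, where the counts of the 9 genes stood at 6 and 1 as well.

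In glucose-only against full cells, 1 of the 9 was higher (DNAJC10), 3 were lower (PDIA3, PDIA6, ERO1A) and 5 did not pass, with a median of -0.52. Over all tested genes 9.44% were called higher and 13.5% lower. The share of calls that were higher was 41.2%, and 15.5% with equal totals, where 0 of the 9 were higher and 6 lower. The 3 comparisons share the full libraries, so their values stand side by side and were not correlated.

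Without glutamine, glucose could be compared within a background: in deficient against glucose-only cells P4HB, PDIA3, PDIA4, PDIA6 and ERO1B were higher, by 0.72, 1.48, 1.45, 1.45 and 2.37 on the log2 scale, and 0 were lower. Over all tested genes 23.2% were called higher and 20.1% lower, and 53.6% of calls were higher, against 36.6% with equal totals. ERO1A, DNAJC10, PDIA5 and PRDX4 did not pass there, at 0.03, -0.04, 0.09 and 0.42, each with the SE given above. DNAJC10 was lower there with quantile normalization (-0.29, adjusted p = 0.0304), and PRDX4 higher without deficient library A (0.65, adjusted p = 0.0415).

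In deficient against glutamine-only cells, where glucose was absent from both, 5 of the 9 were lower and 0 higher. PDIA3 stood at -0.85, PDIA4 at -0.84, PDIA6 at -0.68, ERO1A at -0.98 and DNAJC10 at -0.74. Over all tested genes 21.6% were called higher and 19.9% lower, and 52% of calls were higher, against 25% with equal totals. P4HB (-0.11, adjusted p = 0.449) and ERO1B (0.23, adjusted p = 0.524) did not pass, and P4HB passed with equal totals (-0.39, adjusted p = 0.0123).

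For PDIA3, PDIA4, PDIA6 and P4HB the widest gaps were between the media with 1 nutrient each. In glutamine-only against glucose-only cells 7 of the 9 were higher and 0 lower, against 8.26% and 5.05% of all tested genes. PDIA3 was 5.05-fold, PDIA4 4.89-fold, PDIA6 4.38-fold and ERO1B 4.39-fold higher on the log2(normalized count + 1) scale, ERO1A 2.01-fold, P4HB 1.78-fold and DNAJC10 1.62-fold. Of all calls 62.1% were higher, against 78.7% with equal totals.

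Averaged over both levels of the other nutrient, without glucose PDIA4 was higher by 1.75 ± 0.07, PDIA3 by 1.59 ± 0.08, PDIA6 by 1.34 ± 0.12, P4HB by 0.67 ± 0.08, DNAJC10 by 0.51 ± 0.08 and ERO1B by 2.59 ± 0.19 on the log2 scale (SE). These were 6 of 9, with 0 lower, against 20.5% of all tested genes called higher and 18.4% called lower, and 52.7% of calls were higher, or 32.4% with equal totals. ERO1A changed by -0.16 ± 0.07 (adjusted p = 0.0880), which passed with equal totals (-0.31, adjusted p = 0.0120), with nuclear genes alone (-0.25, adjusted p = 0.0206) and with quantile normalization (-0.25, adjusted p = 0.00930).

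Averaged in the same way, without glutamine ERO1A was lower, with a log2 change of -1.17 ± 0.07 (adjusted p = 2.47e-13), and so were PDIA6, PDIA3 and PDIA4, at -0.79 ± 0.12, -0.74 ± 0.08 and -0.54 ± 0.07. These were 4 of 9, with 0 higher, against 18.6% of all tested genes called higher and 19.5% called lower. Of all calls 48.8% were higher, against 17.4% with equal totals, where 8 of the 9 genes were lower, each but ERO1B. For ERO1A the 6 libraries without glutamine did not overlap the 6 with it, whereas for PDIA3, PDIA4 and PDIA6 the deficient libraries lay above the full ones, so the groups of 6 overlapped.

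**Figure D3:**
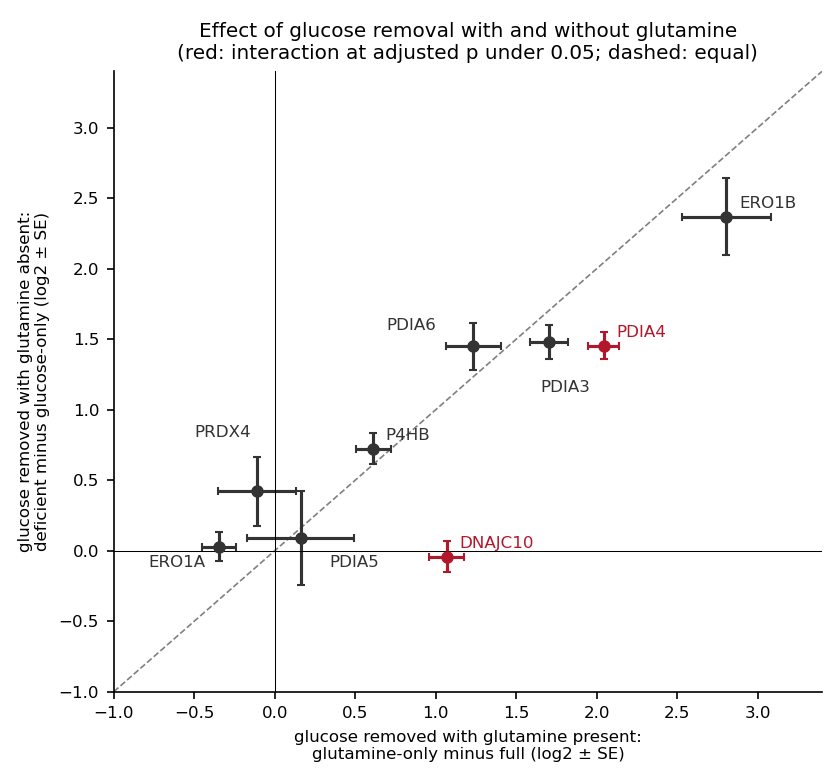
Log2 change on removal of glucose for the 9 tested genes, with glutamine absent (deficient minus glucose-only, vertical axis) and with glutamine present (glutamine-only minus full, horizontal axis), each with its SE. On the dashed line the changes are equal. DNAJC10 and PDIA4, in red, had an interaction past the threshold and lie below the line.

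The interaction asks whether removal of glucose acted differently without and with glutamine. For DNAJC10 the log2 change on glucose removal was -0.04 without glutamine and 1.07 with it, an interaction of -1.11 ± 0.15 (SE, adjusted p = 2.56e-06). For PDIA4 the changes were 1.45 and 2.04, an interaction of -0.59 ± 0.14 (adjusted p = 0.00163). These 2 of 9 were called lower and 0 higher, against 11% and 15.5% of all tested genes. PDIA3 (-0.22 ± 0.17, adjusted p = 0.350), PDIA6 (0.22 ± 0.24, adjusted p = 0.549), P4HB (0.11 ± 0.15, adjusted p = 0.631) and ERO1B (-0.44 ± 0.39, adjusted p = 0.439) did not pass, although PDIA3 did with quantile normalization (-0.54, adjusted p = 0.0190). ERO1A, at 0.38 ± 0.15 (adjusted p = 0.0574), passed without deficient library B (0.41, adjusted p = 0.0470) and among genes with a mean of at least 50 (adjusted p = 0.0230).

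Levels of different genes were compared per kb of exon. PDIA4 was the highest in all 4 media, with 108 ± 2.47 normalized counts per kb in deficient, 194 ± 14.99 in glutamine-only, 39.4 ± 2.09 in glucose-only and 46.7 ± 2.18 in full cells. P4HB followed with 49.4 ± 5.44, 53.1 ± 3.85, 29.8 ± 3.29 and 34.7 ± 1.66 in the same order, and PDIA3 stood at 47.4 ± 0.90, 86.0 ± 5.24, 16.97 ± 2.74 and 26.4 ± 3.52. By this length PDIA3 stood above P4HB in glutamine-only cells and below it in glucose-only and full cells, and in deficient cells their spreads overlapped. ERO1A was at rank 3 in full cells at 31.3 ± 1.39 per kb and at rank 7 in deficient cells at 12.4 ± 0.76, where ERO1B at 14.1 ± 2.40 and PRDX4 at 14.9 ± 5.13 lay within its spread. In full cells ERO1B was at rank 9 with 1.71 ± 1.05 per kb, within the spread of PDIA5 and TXNDC5, which were last or next to last in the other media. The length matters here: per kb of the principal transcript P4HB led PDIA4 in full cells (70.6 and 52.7) and in glucose-only cells (60.8 and 44.4), and DNAJC10, with 21.8 kb of exon, ranked low per kb in every medium. Per kb of the principal transcript the mean of P4HB was also above that of PDIA3 in all 4 media. It stood at 108 against 97.8 in glutamine-only and 101 against 53.9 in deficient cells.

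The 10 genes summed to 1277 ± 10.3 normalized counts in deficient, 1983 ± 92.2 in glutamine-only, 692 ± 31.2 in glucose-only and 924 ± 31.3 in full cells. As a share of reads this was 0.104 ± 0.00822% in deficient, 0.196 ± 0.0161% in glutamine-only, 0.0638 ± 0.00490% in glucose-only and 0.0994 ± 0.0102% in full cells. On that scale, which does not rest on size factors, deficient and full cells lay within their spread, while glutamine-only stood above and glucose-only below both. The total of that share includes mitochondrial reads, which were 28.2 to 33.7% of reads in deficient and 18.5 to 22.6% in full libraries. A share of nuclear reads alone was not taken, so a difference between deficient and full cells on that scale was not tested.

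Ratios within a library do not depend on its scaling. The ratio of reads of ERO1A to P4HB, the oxidase and its main PDI substrate, averaged 0.361 ± 0.0460 in deficient, 0.663 ± 0.0745 in glutamine-only, 0.586 ± 0.0864 in glucose-only and 1.29 ± 0.115 in full cells. Full libraries were highest, deficient ones lowest, and the media with 1 nutrient overlapped between them. On the log2 scale it changed by -0.83 with glucose absent and by -1.004 with glutamine absent, each at p = 0.005 in an exact two-sided permutation test over 400 arrangements within levels of the other nutrient (n = 6 libraries against 6), the smallest p that test allows.

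The ratio of ERO1A to ERO1B averaged 1.25 ± 0.151 in deficient, 2.92 ± 0.209 in glutamine-only, 7.04 ± 2.73 in glucose-only and 31.5 ± 13.98 in full cells. The 4 media did not overlap. In full medium the ratio ran between 15.9 and 42.9, and ERO1B had only 8, 7 and 17 reads in libraries A, B and C. The source of that spread was not tested. The ratio of ERO1A to ERO1B changed by -2.75 on the log2 scale with glucose absent and by -1.62 with glutamine absent. Each change was at p = 0.005 in the same exact test, and at 0.005 when adjusted over the 4 ratio tests.

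Between PDIs, the ratio of PDIA4 to P4HB averaged 1.36 ± 0.123 in deficient, 2.27 ± 0.287 in glutamine-only, 0.820 ± 0.0591 in glucose-only and 0.836 ± 0.0771 in full cells. The ratio of PDIA3 to P4HB averaged 0.773 ± 0.0918 in deficient, 1.30 ± 0.171 in glutamine-only, 0.458 ± 0.0831 in glucose-only and 0.611 ± 0.0960 in full cells. Both ratios were highest in glutamine-only libraries, and these differences were not tested.

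**Figure D4:**
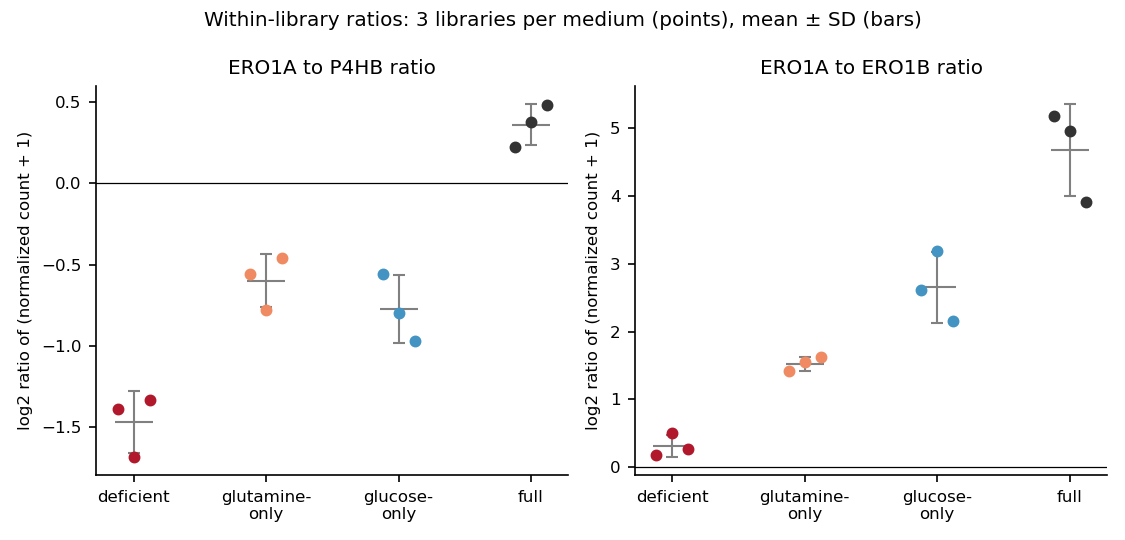
Log2 ratios of ERO1A to P4HB (left) and of ERO1A to ERO1B (right) within each library (vertical axes), by medium (horizontal axes). Points are libraries, and bars are the mean and SD of 3. Both ratios are lowest in deficient and highest in full libraries.

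Of 16 other PDI family genes 11 were tested, and 0 were higher and 3 lower in deficient, 4 higher and 2 lower in glutamine-only, and 2 higher and 3 lower in glucose-only cells, each against full. The shares over all tested genes were the 26.3% and 25.5%, 10.8% and 11.6%, and 9.44% and 13.5% given above, so that 3 of 11 lower in deficient cells is near the background. With equal totals the counts were 0 and 3, 3 and 2, and 0 and 5. The median log2 changes of the 11 were 0.11, 0.34 and -0.27, against 0.01, -0.01 and -0.03 over all tested genes. The membrane-bound PDIs TMX4, TMX3 and TMX1 were lower in deficient cells, by -3.16 ± 0.25, -0.96 ± 0.20 and -0.94 ± 0.13 on the log2 scale. TMX4 averaged 8.81 ± 4.26 normalized counts in deficient, 44.3 ± 7.01 in glutamine-only, 40.1 ± 5.11 in glucose-only and 79.8 ± 6.05 in full cells. AGR2, a PDI of mucus-secreting cells, was higher in glutamine-only cells at 72.2 ± 10.2, against 12.7 ± 1.77 in full cells (log2 change 2.41 ± 0.30, adjusted p = 4.45e-07), and averaged 12.9 ± 7.71 in deficient and 7.96 ± 0.78 in glucose-only cells.

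Of 8 other genes of oxidative folding 7 were tested, and 1 was higher and 3 lower in deficient, 1 higher and 1 lower in glutamine-only, and 0 higher and 1 lower in glucose-only cells. With equal totals these were 1 and 4, 0 and 1, and 0 and 2, and the medians with the authors' scaling were -0.07, 0.04 and -0.00092. The shares over all tested genes were 26.3% higher and 25.5% lower, 10.8% and 11.6%, and 9.44% and 13.5% in the same order of media. VKORC1, an ER enzyme of the vitamin K cycle, was lower in all 3 media, at -1.05 ± 0.22, -0.67 ± 0.22 and -1.07 ± 0.22. The peroxidase gene GPX8 was lower in deficient cells, at -1.29 ± 0.22. Of the 5 other peroxiredoxins 1 was higher and 3 lower in deficient, 0 and 2 in glutamine-only, and 0 and 2 in glucose-only cells, with medians of -0.81, -0.21 and -0.45. With equal totals these were 0 and 3, 0 and 2, and 0 and 3. The shares over all tested genes given above hold for the peroxiredoxins too. With 7 and 5 tested genes, neither list was tested against those shares. PRDX5 was lower in deficient cells by -1.48 ± 0.19 and the mitochondrial PRDX3 by -0.90 ± 0.12.

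Among 10 partners of the members, 8 were tested, and 3 were higher and 2 lower in deficient, 3 and 0 in glutamine-only, and 1 and 3 in glucose-only cells, with medians of 0.35, 0.56 and -0.15. With equal totals these were 2 and 3, 3 and 0, and 0 and 4. Over all tested genes 26.3% were higher and 25.5% lower in deficient, 10.8% and 11.6% in glutamine-only, and 9.44% and 13.5% in glucose-only cells. The partner counts in deficient cells were near these shares. CALR, the calreticulin that recruits PDIA3, averaged 648 ± 40.5 normalized counts in deficient, 860 ± 17.6 in glutamine-only, 194 ± 21.4 in glucose-only and 337 ± 8.36 in full cells, the order of PDIA3 itself. The calnexin gene CANX did not have that order. It averaged 29.3 ± 10.9, 25.5 ± 6.51, 18.8 ± 5.66 and 18.7 ± 3.42 in the same media and passed in no comparison against full. EDEM1, the partner of DNAJC10, averaged 124 ± 10.4, 243 ± 15.4, 97.8 ± 5.16 and 91.2 ± 10.7 in the same order, highest in glutamine-only cells like DNAJC10. P4HA1, the catalytic partner of P4HB in collagen hydroxylation, averaged 45.6 ± 4.08 in deficient, 149 ± 12.5 in glutamine-only, 33.4 ± 3.53 in glucose-only and 130 ± 11.2 in full cells, so that it was low in both glutamine-free media. P4HA2, at -1.43 ± 0.24 in deficient and -1.23 ± 0.24 in glucose-only cells against full, was lower in the same media. P4HA1 and P4HA2 are counted again among the hypoxia targets below.

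All 22 ER chaperone and stress genes were tested, and 17 were higher and 0 lower in deficient, 20 and 0 in glutamine-only, and 6 and 3 in glucose-only cells. The medians were 1.20, 1.57 and 0.13, and 26.3%, 10.8% and 9.44% of all tested genes were higher. With equal totals the counts were 14 and 1, 18 and 0, and 4 and 5. HSPA5, the main ER chaperone, averaged 1599 ± 60.4 normalized counts in deficient, 1274 ± 31.6 in glutamine-only, 309 ± 21.1 in glucose-only and 256 ± 15.3 in full cells. Of 12 genes of the ATF4 response 10 were tested, and 9 were higher in deficient, 9 in glutamine-only and 8 in glucose-only cells, with 1, 0 and 0 lower and medians of 2.99, 1.98 and 1.89. These counts were the same with equal totals. TRIB3, an ATF4 target, was higher in all 3 media, at 3.91 ± 0.14, 3.32 ± 0.14 and 3.38 ± 0.14 on the log2 scale.

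Of 16 hypoxia targets 13 were tested, and 2 were higher and 10 lower in deficient, 2 and 4 in glutamine-only, and 1 and 12 in glucose-only cells, where 25.5%, 11.6% and 13.5% of all tested genes were lower. With equal totals these were 1 and 11, 2 and 4, and 1 and 12, and the medians with the authors' scaling were -1.43, -0.09 and -1.88. Averaged over glucose, 10 of the 13 were lower without glutamine and 0 higher, against 19.5% and 18.6% of all tested genes, and ERO1A was lower as well. PGK1, a glycolytic hypoxia target, averaged 150 ± 25.7 normalized counts in deficient, 340 ± 10.7 in glutamine-only, 122 ± 13.2 in glucose-only and 688 ± 38.4 in full cells. BNIP3, a mitophagy receptor, averaged 88.0 ± 11.9, 251 ± 22.7, 56.1 ± 5.15 and 404 ± 16.1 in the same order. Both genes, like ERO1A, were lowest in the glutamine-free media and highest in full medium. Other targets had another order. ADM averaged 79.5 ± 15.9 in deficient, 47.6 ± 3.04 in glutamine-only, 12.6 ± 0.92 in glucose-only and 23.5 ± 3.77 in full cells. KDM3A was also highest in deficient cells, at 152 ± 20.9. VEGFA was higher in glutamine-only (374 ± 4.88) and glucose-only cells (357 ± 30.6) than in full cells (244 ± 15.3).

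**Figure D5:**
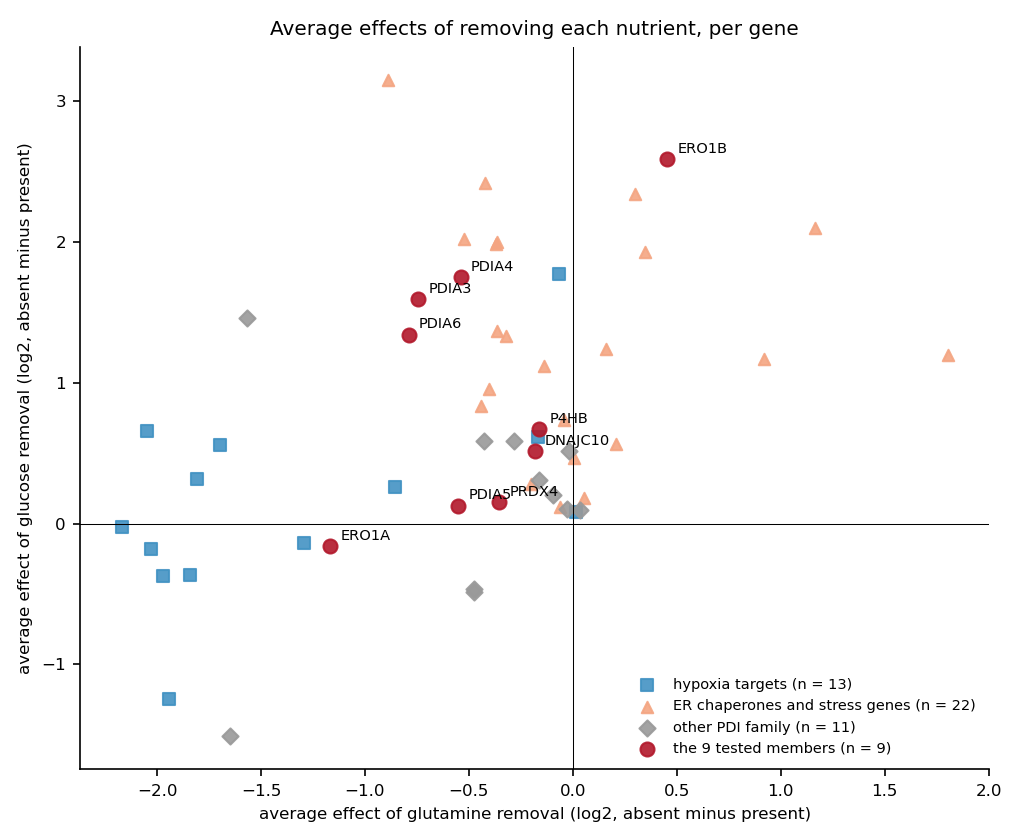
Average log2 effect of removing glutamine (horizontal axis) and glucose (vertical axis) per gene, for the 9 tested members, 22 ER chaperone and stress genes, 11 other PDI family genes and 13 hypoxia targets. PDIA3, PDIA4, PDIA6 and ERO1B lie among the ER genes at the top, and ERO1A lies at the left with most hypoxia targets.

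The genes most like each member were found among 2749 genes with a mean of at least 50, by the root mean square (RMS) difference of centred log2 values over 12 libraries, which share their media and scaling. PDIA3 was nearest to NUCB2 (0.16) and CALR (0.21), PDIA4 to NUCB2 (0.23) and HSP90B1 (0.25), and PDIA6 to CALR (0.24) and NUCB2 (0.27). ERO1B was nearest to HSPA5 (0.40), DNAJB9 (0.54) and HERPUD1 (0.55), against its own RMS of 1.37 about its mean. ERO1A was nearest to PAM (0.14) and the enolase genes ENO2 (0.14) and ENO1 (0.15), against its own 0.60. P4HB was nearest to NPC1 (0.11) and EEF1A1 (0.13) and DNAJC10 to STAT2 (0.16) and TMED10 (0.18). For PDIA5 and PRDX4 the nearest, LEPROT (0.20) and LDHB (0.22), were at distances not far below the genes' own RMS of 0.37 and 0.36.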

How the data were processed

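Total RNA was depleted of ribosomal RNA and made into stranded libraries, per the labels' protocols. The authors deposited 1 table of gene-level signal, read counts divided by a size factor per library. Per the submitters' processing notes FastQC, HISAT2, Subread and DESeq2 were used with build GRCh38.p14; versions, annotation release and strand setting are not given in the sources used here, so that reads of overlapping genes on opposite strands may not be separated. In every library 100% of deposited values were whole multiples of the worth of 1 read (0.661 to 1.30) within 0.01 reads, so whole reads were recovered. On those reads edgeR's quasi-likelihood test called 5008 genes in deficient, 2447 in glutamine-only and 2229 in glucose-only cells against full, and limma on the log2 values called 4804, 2083 and 2124. Libraries held 875033 to 1473587 reads in genes.

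Of 32493 genes with a read, 9270 reached a normalized count of 10 in 3 or more libraries. They were tested with limma-trend 3.58.1 (R 4.3.3) on log2(normalized count + 1), in 1 model of 4 media, with contrasts for pairs of media, average nutrient effects and the interaction (deficient minus glucose-only, less glutamine-only minus full). P-values are two-sided and Benjamini-Hochberg adjusted over all 9270 genes at 0.05. Fold changes on this scale understate changes of low genes. The script was tested on simulated data. Ratios were tested by exact permutation.

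Alternatives were pseudocounts of 0.5 and 8, all genes with a read, genes with a mean over 50, equal totals per library, quantile normalization, nuclear genes alone, a replicate letter block, pairs of media alone, edgeR 4.0.16 and DESeq2 1.42.0 on whole reads, adjusted p under 0.01, each library left out, and PDIA3 with PDIA3P1 summed. Named context genes were, per list and comparison against full, up to 3 genes past the threshold with the largest changes, plus fixed partners and anchors. The members and lists were chosen with earlier results of these data known. Gene positions and promoter windows are from RefSeq (GRCh38.p14), and exon lengths and overlaps from GENCODE release 29. A PDIA3 window was not used here.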

Additional observations from a re-analysis of the deposited data

Results flagged for a closer look

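The effect of removing glucose differed with glutamine for DNAJC10 and PDIA4, by the interaction term of the limma model. For DNAJC10 the interaction was -1.11 on the log2 scale (adjusted p = 2.56e-06): its means were 155 in deficient and 159 normalized counts in glucose-only cells, but 259 in glutamine-only and 123 in full cells. For PDIA4 it was -0.59 (adjusted p = 0.00163): it was 2.74-fold higher in deficient than in glucose-only cells and 4.12-fold higher in glutamine-only than in full cells, on the log2(normalized count + 1) scale. Both calls held under all alternatives run, including each library left out.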

How the results depend on the processing

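Counts of members called were within 1.5 times of those reported under edgeR and with pseudocounts of 0.5 and 8, and no other setting than those named here moved one further. With equal totals 3 members were higher and 2 lower in deficient against full cells, 0 higher and 6 lower in glucose-only against full cells, 1 lower without glucose on average and 8 lower without glutamine on average, and the DNAJC10 change in deficient cells turned to -0.0701. With nuclear genes alone 0 were higher in glucose-only cells, 1 lower without glucose and 8 lower without glutamine. Quantile normalization gave 1 lower in deficient against glucose-only and 1 lower without glucose, and a mean of at least 50 gave 1 lower without glucose and 1 higher in the interaction. No filter, adjusted p under 0.01 and DESeq2 each left 0 lower in glutamine-only and 0 higher in glucose-only cells. Without the filter, where TXNDC5 was tested too, 6 members were again higher in deficient against full cells. DNAJC10 was not among them (adjusted p = 0.06473). Over all genes DESeq2 called 1255 in glucose-only against full, 604 in glutamine-only against glucose-only and 1495 in the interaction, where limma called 2124, 1234 and 2458. Leaving out each library gave 0 to 1 lower in glutamine-only, 0 to 2 higher in glucose-only, 0 to 1 higher without glutamine and 0 to 1 higher in the interaction. The cause of these shifts was not tested.

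Replicate letters paired the libraries weakly at most: correlations of same-letter deviations were -0.0289 to 0.0670, with 0 of 18 over 0.1. Still, 9 of 12 libraries correlated best with their own letter, so weak pairing may be present. The replicate block gave 1 member higher without glutamine (ERO1B, 0.45, adjusted p = 0.0449) in place of 0, and changed 1 other call (DNAJC10, -0.18, adjusted p = 0.0384). No ratio test changed its call. At this depth PDIA5, PRDX4 and TXNDC5 rest on few reads, which limits the precision of their changes.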
